A study of Mus musculus with 4 samples.

Results

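The clustered histone genes of the mouse are the genes whose symbols begin with Hist1h, Hist2h, Hist3h or Hist4h, and 67 of the 32285 genes in the count tables carry such a symbol. They comprise 6 genes for the linker histone H1, 18 for H2A, 18 for H2B, 12 for H3 and 13 for H4. On the mm10 build (GRCm38), 54 of them lie on chromosome 13, 10 on chromosome 3, 2 on chromosome 11 and 1 on chromosome 6. Their UMI counts (unique molecular identifiers, 1 per captured transcript molecule) were followed in single cells of mouse hindlimb muscle, in cycling blood cells and in resting blood, endothelial and stromal cells.

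There were 4 libraries, each of cells pooled from 3 hindlimbs of male C57Bl/6J mice. IR 24-hours and IR 56-days came from limbs given 3 fractions of 8.2 Gy of X-rays at 5 weeks of age, and CON 24-hours and CON 56-days from the opposite limbs, which were lead-shielded. The limbs were taken 24 hours after the last fraction or 56 days after irradiation, and live nucleated cells were sorted. No transgene or other allele is named, red blood cells were lysed, and the control limb belongs to an irradiated animal. Each group is 1 library of pooled limbs, so differences between IR and CON have no replicate check.

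Nucleosomes are built from pairs of H2A, H2B, H3 and H4 around which DNA is wrapped, and H1 binds the linker DNA between them. Most clustered histone genes are replication-dependent: they are transcribed when DNA is copied in S phase, by a machinery organised by Npat, and their messengers are degraded when replication ends. These messengers normally carry no poly(A) tail; they end just after a short stem-loop that binds the stem-loop binding protein Slbp. The libraries were made with 3' chemistry that primes on poly(A), so the counts are of the molecules that this priming captured. Replacement histones such as H3f3a and H3f3b are encoded elsewhere by polyadenylated messengers and are made throughout the cell cycle. In blood-forming tissue the precursors of erythroid, granulocytic and B cells divide, whereas the endothelium of adult muscle is mostly quiescent.

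The stem-loop is shown first, because it is the feature that separates these messengers from polyadenylated ones. The annotated 3' UTR was searched for a perfect stem of 6 bases that opens with GG and closes with CC. Its loop had 4 bases, with at least 2 T in the first 3. A match was found in 45 of the 67 members (67.2%), 21 to 58 bases after the stop codon. In GENCODE M21, 187 of 58725 other protein-coding transcripts (0.318%) had a match at any distance. Members were counted as genes, by the transcript with the longest 3' UTR, and the others as single transcripts, so the 2 shares differ in unit. All 33 H1, H2A, H2B and H3 members with such a match had the stem GGCTCT, while 10 H4 members had GGCCCT and 2 had GGTCCT. The most frequent form, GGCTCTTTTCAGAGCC, was found in 25 members, and there were 8 forms in all. Of the 22 members without a match, 17 have an annotated 3' UTR of under 60 bases, and 13 members have no annotated 3' UTR base. The sequences of the members that lead the results below follow, 5′ to 3′, with the 2 arms of the stem in capitals:
Hist1h1e: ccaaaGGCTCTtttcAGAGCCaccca
Hist1h1c: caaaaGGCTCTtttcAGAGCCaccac
Hist1h2ae: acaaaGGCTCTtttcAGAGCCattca
Hist1h2ap: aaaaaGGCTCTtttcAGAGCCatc
Hist3h2a: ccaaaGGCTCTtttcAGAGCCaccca
Hist1h3c: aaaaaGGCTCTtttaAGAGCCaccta
Hist1h4d: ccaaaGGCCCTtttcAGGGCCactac
Hist1h4i: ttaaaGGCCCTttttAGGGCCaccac
They lie at chr13:23621777-23621802 on the minus strand for Hist1h1e, chr13:23739507-23739532 on the plus strand for Hist1h1c and chr13:23570663-23570688 on the minus strand for Hist1h2ae. Those of Hist1h2ap (chr13:21833026-21833049) and Hist1h3c (chr13:23745042-23745067) are on the minus strand. That of Hist3h2a (chr11:58955167-58955192) is on the plus strand, as is that of Hist1h4d (chr13:23581945-23581970), and that of Hist1h4i (chr13:22040961-22040986) is on the minus strand. The annotated transcript of Hist1h2ap stops 3 bases past its loop, whereas that of Hist1h1e runs on for 1153 bases, that of Hist1h1c for 840, that of Hist3h2a for 1643 and that of Hist1h4d for 770.

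RefSeq promoters (GRCm38.p6, 250 bases before to 50 after the start) matched 61 of the 67 members. The letters CCAAT, counted on both strands, were found in 52 of these (85.2%), against 37.8% of the promoters of 26963 other genes. All 6 H1, 17 H2A, 16 H2B and 10 H3 promoters had the letters, and 3 of 12 H4 promoters did. The octamer ATTTGCAT was in 7 of 17 H2A and 6 of 16 H2B promoters and in none of the H1, H3 or H4 promoters, against 1.71% of other genes. TATAAA was in 35 of the 61 (57.4%), against 14.1% of other genes. Shown are Hist1h1b and Hist1h2ae, the members with most UMIs in cycling blood cells, and Hist3h2a, the tested member that was not called between cycling and resting blood cells, with matches to these 3 motifs on either strand in capitals; no motif was tested against any change:
Hist1h1b: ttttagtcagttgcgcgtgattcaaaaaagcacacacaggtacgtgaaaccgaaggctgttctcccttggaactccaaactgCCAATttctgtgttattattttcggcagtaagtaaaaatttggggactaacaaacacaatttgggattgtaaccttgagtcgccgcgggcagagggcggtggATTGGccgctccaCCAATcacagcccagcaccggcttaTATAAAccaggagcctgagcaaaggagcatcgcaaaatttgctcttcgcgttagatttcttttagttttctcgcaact
Hist1h2ae: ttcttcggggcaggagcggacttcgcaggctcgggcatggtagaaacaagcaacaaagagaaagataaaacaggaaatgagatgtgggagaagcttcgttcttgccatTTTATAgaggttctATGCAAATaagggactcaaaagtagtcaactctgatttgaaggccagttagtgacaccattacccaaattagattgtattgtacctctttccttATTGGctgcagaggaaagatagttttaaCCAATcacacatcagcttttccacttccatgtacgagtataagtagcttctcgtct
Hist3h2a: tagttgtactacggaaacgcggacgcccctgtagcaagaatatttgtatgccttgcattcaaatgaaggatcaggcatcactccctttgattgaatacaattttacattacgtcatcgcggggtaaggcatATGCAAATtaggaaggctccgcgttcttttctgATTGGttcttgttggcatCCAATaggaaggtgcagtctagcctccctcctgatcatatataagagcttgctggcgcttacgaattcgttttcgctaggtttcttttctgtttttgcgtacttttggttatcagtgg
These windows are chr13:21780576-21780875 on the minus strand, chr13:23571171-23571470 on the minus strand and chr11:58954435-58954734 on the plus strand. The window of Hist1h2ae also holds the start of Hist1h2bg, which is transcribed the other way. A match is a run of letters, not a measured binding site.

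Of 7086 barcodes, 6544 were kept, each with 200 or more genes, 500 or more UMIs and no more than 20% of UMIs from mitochondrial genes: 2539 in IR 24-hours, 1336 in CON 24-hours, 969 in IR 56-days and 1700 in CON 56-days. They held 28885397 UMIs, of which 62173 came from the clustered histone genes, and the median cell had 3057 to 3627 UMIs in the 4 libraries. Between 1 and 3 barcodes were shared by any pair of libraries. Cdkn1a, a target of p53 that radiation induces, checked the labels: resting endothelial cells had 2374 CPM (UMIs of a gene per 1000000 UMIs of the cells) in IR 24-hours against 309 in CON 24-hours, and 1414 in IR 56-days against 163 in CON 56-days. Free RNA was present, since Hbb-bs, a haemoglobin gene that endothelial cells should lack, had 1055 and 180 CPM in endothelial cells of IR and CON 24-hours and 3275 and 2146 CPM in those of IR and CON 56-days.

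Cells were placed in classes by marker genes: at least 3 markers of a class with a UMI, and at least 2 times as many as of any other class. Cycling cells had UMIs of at least 2 of 10 cell-cycle genes, none of them a histone gene, and resting cells of none. Blood means erythroid, granulocytic and B-lineage cells; stromal means fibro-adipogenic progenitors (FAPs), pericytes or smooth muscle cells, satellite cells, Schwann cells and tenocytes. By this gate, 1 of 130 blood cells was cycling in IR 24-hours, 48 of 324 in CON 24-hours, 27 of 103 in IR 56-days and 94 of 397 in CON 56-days. The gate needs UMIs, and cycling blood cells were deeper, with medians of 9738 to 12945 UMIs a cell in the 4 libraries, against 3004.5 to 3806 in resting blood cells.

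Clustered histone transcripts were more abundant in cycling blood cells than in any of the 3 resting groups, in the 3 libraries with 10 or more such cells. Cycling blood cells had 8249 CPM in CON 24-hours, 9967 CPM in IR 56-days and 20833 CPM in CON 56-days. Resting blood cells had 857 CPM in IR 24-hours, 758 in CON 24-hours, 1291 in IR 56-days and 1143 in CON 56-days. Every library with 10 or more cycling blood cells thus had them above all 4 sums of resting blood cells. Resting endothelial cells had 467, 407, 585 and 597 CPM in IR 24-hours, CON 24-hours, IR 56-days and CON 56-days, and resting stromal cells 525, 434, 631 and 557 CPM in the same libraries. The endothelial and stromal ranges overlap each other, and both lie below the lowest resting blood value. The single cycling blood cell of IR 24-hours had 4 member UMIs, or 411 CPM.

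**Figure D1:**
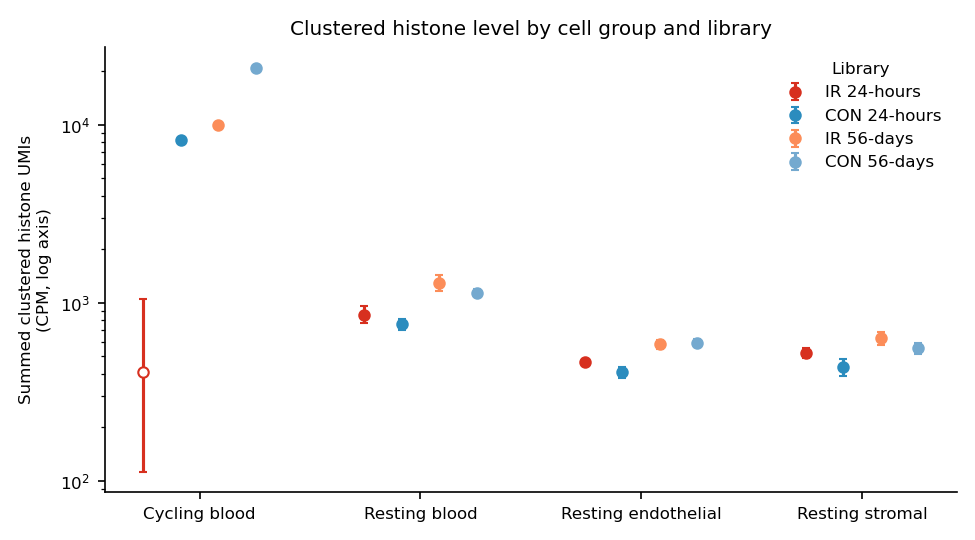
Summed clustered histone CPM (log axis) in each library for cycling blood, resting blood, resting endothelial and resting stromal cells, with 95% exact Poisson intervals that cover counting error only. Cycling blood cells of CON 24-hours, IR 56-days and CON 56-days sit between 8249 and 20833 CPM, above every resting sum, and the point at 411 CPM is 1 cell.

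Among cycling blood cells, erythroid cells held most of these transcripts. Cycling erythroid cells, the precursors of red cells, had 15574 CPM in CON 24-hours, 13816 in IR 56-days and 31036 in CON 56-days. Cycling B-lineage cells had 7927, 3531 and 30433 CPM in these libraries, from 14, 2 and 7 cells. Cycling granulocytic cells, marked by genes of neutrophil granules, had 1743, 1768 and 4644 CPM. Granulocytic cells were thus the lowest of the 3 classes in each of these libraries. Single cells of 1 class varied widely: the member share of a cycling erythroid cell in CON 56-days ranged from 0.0455% to 8.77% of its UMIs with a median of 3.55%, and the medians were 1.68% in IR 56-days and 0.260% in CON 24-hours.

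With UMIs summed per library and cell group, 12014 genes passed the filter on low counts, 49 of them clustered histone genes. In the edgeR quasi-likelihood test with library as a block, 48 of the 49 were higher in cycling than in resting blood cells at an adjusted p under 0.05 and none was lower, where 17.7% of all genes tested were higher and 18.6% lower. The median log2 fold change of the 49 was 4.75, against -0.07 over all genes tested, and 4.70 with the 4 members without a UMI in resting blood set at their lower bound. Many members passed the filter only through the cycling sums, where they are high, so these counts are given as a description only. Of the 17 members that pass the same filter in the resting sums alone, 16 were higher and none lower. Cycling and resting cells also differed in class. Erythroid cells were 25 of 48 cycling blood cells in CON 24-hours, 21 of 27 in IR 56-days and 64 of 94 in CON 56-days. Among resting blood cells they were 11 of 246, 1 of 72 and 9 of 277 in these libraries. Without erythroid cells, 39 members were tested and 32 were higher (10.7% of all genes were), with no cycling sum in IR 56-days. The median log2 fold change was 3.48. The part of class in the fold changes was not tested. The libraries that act as replicates are of 4 different groups for resting cells. For cycling cells they are CON 24-hours, IR 56-days and CON 56-days, since IR 24-hours has no cycling sum. With library as a block, the p-values set a mean difference between cell groups against the spread left between libraries. That spread comes from 1 fit over all cell groups and is moderated over genes.

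The linker histones gave the most UMIs. Hist1h1b (chr13:21779883-21780625, minus strand) led all members in cycling blood cells. It had 1297 CPM in CON 24-hours, 1184 in IR 56-days and 4319 in CON 56-days, and in resting blood cells 31.6, 24.4, 25.2 and 48.4 CPM in IR 24-hours, CON 24-hours, IR 56-days and CON 56-days. The groups do not overlap, and the log2 fold change was 6.20 (SE 0.42). In resting endothelial cells Hist1h1b was at 0 in CON 24-hours and IR 56-days and at 1.65 and 3.13 CPM in IR 24-hours and CON 56-days.

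Hist1h1e (chr13:23620629-23622558, minus strand) had 695, 674 and 2328 CPM in the cycling blood cells of CON 24-hours, IR 56-days and CON 56-days. Its resting blood values were 211, 169, 227 and 379 CPM in IR 24-hours, CON 24-hours, IR 56-days and CON 56-days, and the log2 fold change was 2.33 (SE 0.24). Hist1h1c (chr13:23738808-23740367, plus strand) had 398, 352 and 1236 CPM in cycling cells and 190, 155, 223 and 281 CPM in resting ones, a log2 fold change of 1.61 (SE 0.33) that was no longer called without erythroid cells (0.43). Both genes were also the most abundant members in resting blood cells, where together they made up 50.2% of all member UMIs in resting blood cells. Hist1h1d averaged 548 CPM in cycling and 34.5 CPM in resting blood cells, and Hist1h1a 499 and 9.73 CPM. Hist1h1t, the testis H1, had 1 UMI in each.

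Among H2A genes, Hist1h2ae (chr13:23570517-23571220, minus strand) had 1016, 1641 and 3003 CPM in cycling blood cells of CON 24-hours, IR 56-days and CON 56-days. It had 23.7, 22.3, 32.4 and 18.8 CPM in resting ones of IR 24-hours, CON 24-hours, IR 56-days and CON 56-days (log2 fold change 6.28, SE 0.31). Hist1h2ap had 854, 1315 and 1000 CPM in cycling cells, and its highest resting value was 36.0 CPM (5.61, SE 0.39). Its first 300 coding bases equal those of Hist1h2ao, so reads from there cannot be told apart, and Hist1h2ap is uncertain to that extent. Hist1h2ab had 603 CPM over all cycling and 2.68 CPM over all resting blood cells, a ratio of 225 with a 95% interval of 114 to 522 for counting error.

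Hist3h2a (chr11:58954685-58956830, plus strand), an H2A gene outside the large clusters that shares exon sequence on its strand with Trim17, was the tested member that was not called. It had 42.6, 40.5 and 56.8 CPM in cycling blood cells of CON 24-hours, IR 56-days and CON 56-days and 50.1, 54.2, 119 and 15.2 CPM in resting ones of IR 24-hours, CON 24-hours, IR 56-days and CON 56-days. The groups overlap (log2 fold change 0.17, SE 0.35, edgeR adjusted p = 0.793).

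H2B genes ranged as widely. Hist1h2bj averaged 275 CPM in cycling and 4.70 CPM in resting blood cells (log2 fold change 5.50, SE 0.41), and Hist1h2bm 129 CPM from 342 UMIs against 1 UMI in resting cells. Hist1h2bc (chr13:23684199-23692908, plus strand), with an annotated 3' UTR of 742 bases and no stem-loop match, had 252, 131 and 166 CPM in cycling cells of CON 24-hours, IR 56-days and CON 56-days. It had 71.2, 39.3, 144 and 114 CPM in resting cells of IR 24-hours, CON 24-hours, IR 56-days and CON 56-days. These groups overlap, and its call (log2 1.18, SE 0.39, edgeR adjusted p = 0.0247) was lost without CON 24-hours, without erythroid cells and with a looser cycling gate. Hist3h2ba, on chromosome 11, averaged 138 and 13.1 CPM (3.05, SE 0.31), and its call was lost without erythroid cells (1.09).

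Of the 10 called members with the largest fitted fold change, most were H3 or H2B genes, families that hold 12 and 18 of the 67 members. Hist1h3c (chr13:23744973-23745602, minus strand) had 1233 UMIs in cycling blood cells, or 129, 117 and 702 CPM in CON 24-hours, IR 56-days and CON 56-days, and none in the resting blood cells of any library. Counted against a floor of 3 UMIs over the resting group, it was at least 462-fold higher. Hist1h3b was at least 45.0-fold, Hist1h3g at least 29.6-fold and Hist1h2bk at least 12.0-fold higher on the same floor. Hist1h3b shares its first 300 coding bases with Hist1h3d, and Hist1h2bk with 2 other H2B genes. Hist1h2bp, Hist1h4k and Hist1h2bm each had 1 resting UMI, with ratios of 127 (22.3 to 5060), 116 (20.3 to 4616) and 384 (68.5 to 15224). Hist1h2af and Hist1h2bb had ratios of 137 (37.5 to 1138) and 118 (50.2 to 365). Under the DESeq2 Wald test Hist1h3c, Hist1h3b, Hist1h3g, Hist1h2bk and Hist1h2bp were no longer called, with log2 fold changes from 5.36 to 9.62. Not all H3 genes were so restricted: Hist1h3e averaged 223 CPM in cycling and 21.1 CPM in resting blood cells (log2 3.32, SE 0.27), and Hist1h3f 163 and 4.02 CPM.

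H4 genes all encode the same protein but differed in level. Hist1h4d (chr13:23581598-23582735, plus strand) had 646, 745 and 1166 CPM in cycling blood cells of CON 24-hours, IR 56-days and CON 56-days, and 42.2, 24.4, 57.5 and 37.6 CPM in resting ones of IR 24-hours, CON 24-hours, IR 56-days and CON 56-days (log2 4.58, SE 0.26). Hist1h4h averaged 299 and 11.4 CPM (4.50, SE 0.31). Hist1h4i (chr13:22040636-22041362, minus strand) averaged 148 and 34.2 CPM, a smaller fitted change (2.14, SE 0.38). Its call was lost after thinning to 1000 UMIs (1.25).

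**Figure D2:**
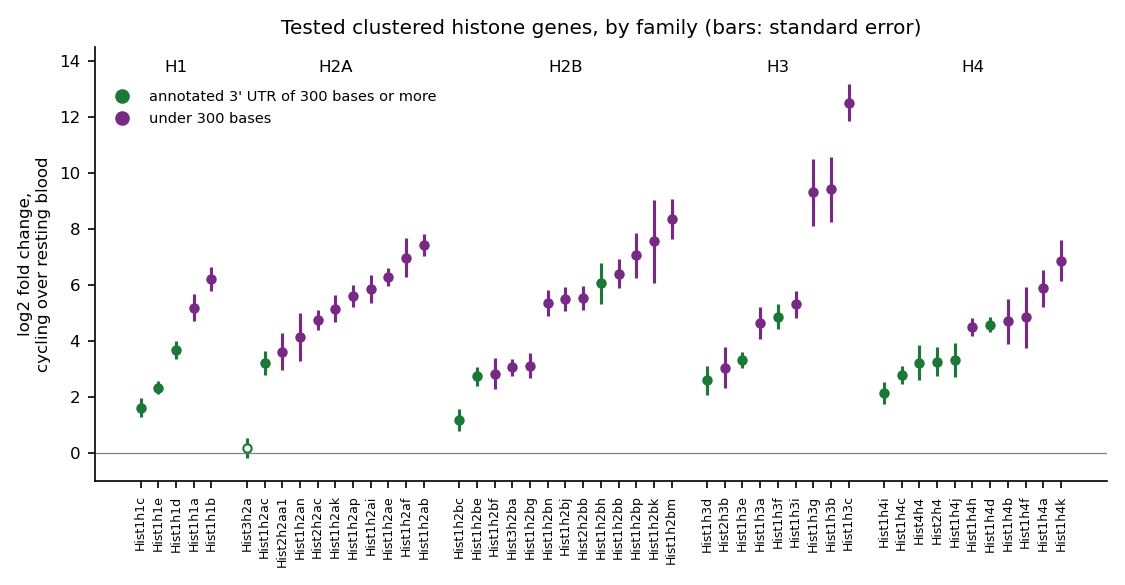
Log2 fold change of each of the 49 tested members, cycling over resting blood cells, by family and coloured by annotated 3' UTR length, with bars of 1 standard error from edgeR; the open circle is not called. All but Hist3h2a (0.17) lie above 1, and the 4 members without a UMI in resting blood cells, Hist1h2bk, Hist1h3b, Hist1h3c and Hist1h3g, have fitted values that depend on the prior count and are no bound.

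Cycling blood cells were also set against the mean of the fitted log2 levels of resting endothelial and resting stromal sums, each with equal weight. All 49 tested members were higher in cycling blood cells, also a description for the same reason. Of all genes, 26.0% were higher and 32.9% lower. The median log2 fold change was 7.48, against -0.29 over all genes tested. It was 10.93 (SE 0.42) for Hist1h1b, 10.38 (SE 0.29) for Hist1h2ae and 4.09 (SE 0.21) for Hist1h1e. The smallest was that of Hist3h2a at 0.96 (SE 0.30, edgeR adjusted p = 0.0114).

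Resting blood cells, taken as 1 group, had more of these transcripts than resting endothelial and stromal cells, but the classes within the groups overlap. Resting B-lineage cells had 907, 928, 1687 and 2016 CPM in IR 24-hours, CON 24-hours, IR 56-days and CON 56-days, and resting granulocytic cells 555, 319, 673 and 847 CPM. Resting Schwann cells, a stromal class, had 723, 822, 891 and 1237 CPM, above the joint resting blood value in both CON libraries, and the 11 resting erythroid cells of CON 24-hours had 151 CPM. In resting blood over resting endothelial and stromal cells, again with equal weight for the smaller stromal sums, 29 of the 49 members were higher and none lower. Of all genes tested, 23.6% were higher and 31.3% lower. Of the 17 members that pass the filter in the resting sums alone, 13 were higher. Those sums include resting blood, through which members high there can pass, so both counts are a description only. Hist1h1d differed by 4.80 (SE 0.38) on the log2 scale, averaging 34.5 CPM in resting blood cells, 4.50 CPM in endothelial and 0.849 CPM in stromal cells. Hist1h4i differed by 3.49 (SE 0.40), at 34.2 CPM in resting blood and 8.57 CPM in endothelial cells. Hist1h1b was at 36.6, 1.47 and 2.97 CPM in resting blood, endothelial and stromal cells. After each cell was thinned to 1000 UMIs, 3.13% of resting blood cells had a Hist1h1b UMI (7.69% unthinned), against 0.144% of endothelial (0.500%) and 0.221% of stromal cells (1.02%); in cycling blood cells it was 61.2% (88.2%). Thinning left out 11 of 715 resting blood, 430 of 3200 endothelial, 73 of 979 stromal and 5 of 170 cycling blood cells as too shallow. A cell can be cycling and lack a UMI of the 10 cycle genes, so how many resting blood cells were dividing was not tested.

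Resting cells drew most member UMIs from few genes, though most members had a UMI. In resting endothelial cells, 5 genes made up 78.9% of member UMIs: Hist1h1e at 123 CPM, Hist1h1c at 96.2, Hist1h2bc at 90.7, Hist3h2a at 48.4 and Hist1h4d at 40.9. The same 5 led in stromal cells, with Hist1h2bc first at 144 CPM, then Hist1h1e at 126 and Hist1h1c at 91.3. In cycling blood cells the order began with Hist1h1b at 3058 CPM, Hist1h2ae at 2284, Hist1h1e at 1654 and Hist1h2ap at 1010, and these 4 made up 50.3%; Hist1h4d and Hist1h1c followed, so 3 of the 5 endothelial leaders were among the first 6 in cycling blood cells as well. Of the 67 members, 66 had a UMI in cycling blood cells, 59 in resting blood, 58 in endothelial and 46 in stromal cells, and Hist1h2bq was at 0 in the cycling cells. By family, H2A gave 30.5% of member UMIs in cycling blood cells, against 12.1% in resting blood, 13.2% in endothelial and 9.59% in stromal cells. H2B gave 9.56% in cycling blood cells, against 14.3%, 23.0% and 32.3%, and H3 7.02%, against 4.16%, 2.23% and 1.54%.

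The members were also grouped by gene model. The 22 members with an annotated 3' UTR of at least 300 bases (the shortest has 376) gave 34.0% of member UMIs in cycling blood cells, against 82.8% in resting blood, 90.9% in endothelial and 88.8% in stromal cells. The limit of 300 bases was set after the values were seen, and no member lies between 230 and 376. Between libraries the share was 35.2%, 32.6% and 34.0% in cycling cells of CON 24-hours, IR 56-days and CON 56-days, and from 89.7% to 91.8% in endothelial cells. As levels, long-UTR members had 5418 CPM in cycling and 828 CPM in resting blood cells, and the 45 short-UTR members 10501 and 171 CPM. In endothelial and stromal cells the short-UTR members summed to 45.9 and 60.1 CPM. The fitted log2 fold changes of cycling over resting blood ran from 0.17 to 6.05 for the 17 long-UTR members tested and from 2.82 to 12.5 for the 32 short-UTR members, so the ranges overlap; most of the short-UTR members passed the filter through the cycling sums, and the upper end is a member at 0 in resting blood. Of the long-UTR members, 4 have no stem-loop match, Hist1h2bc among them. Exons of 7 members overlap another gene's on the same strand, including Hist1h1e and Hist1h2be, which overlap each other, so their counts are less certain.

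**Figure D3:**
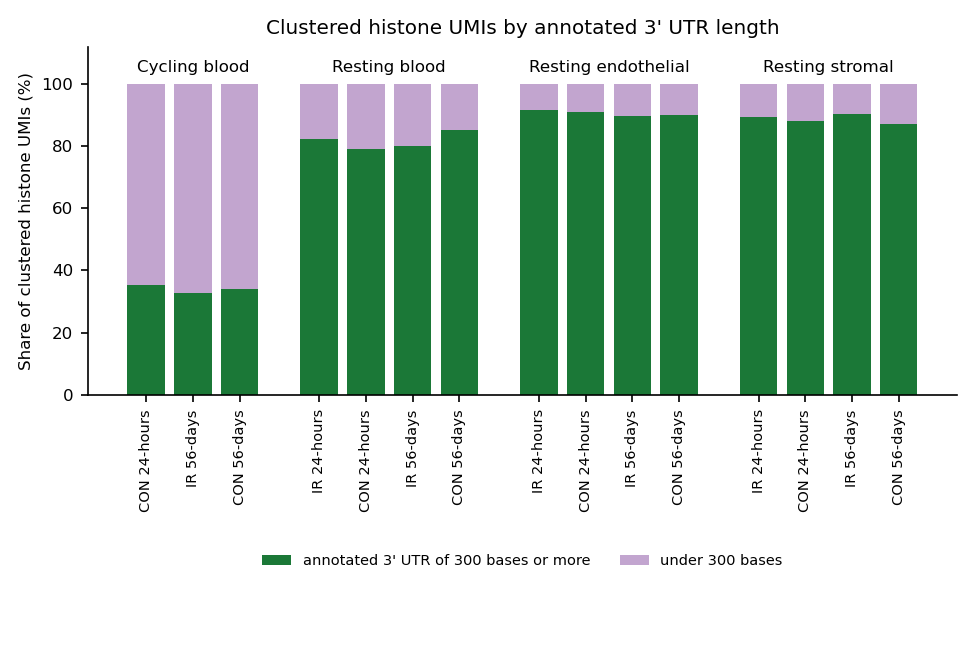
Stacked bars of the percent of clustered histone UMIs from the 22 members with an annotated 3' UTR of at least 300 bases (green) and the 45 with a shorter one (purple), per library and cell group. The green share of cycling blood cells lies between 32.6% and 35.2% in the 3 libraries with 10 or more such cells, and every resting sum lies at 79.1% or above.

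Genes that act with the histone genes were read from lists, to be set beside the 17.7% of all genes tested that were higher and the 18.6% that were lower. The 15 S-phase genes all rose in cycling over resting blood cells, including Pcna, the sliding clamp of DNA polymerase (log2 3.53, SE 0.27), and Tipin, which protects replication forks (4.32, SE 0.34). The 12 G2/M genes all rose as well, among them Cenpf (7.80, SE 0.46) and Ube2c (6.00, SE 0.40). Cells were gated on 10 other cell-cycle genes, so a rise of these 2 lists was to be foreseen from the gate. Both counts are given as a description only. Of 14 genes for histone messenger synthesis and 3' processing, 13 were tested and 4 rose: Slbp (2.88, SE 0.28), Npat (1.70, SE 0.44), Casp8ap2, which works with Npat's nuclear body (1.58, SE 0.32), and Eri1, a nuclease that trims the messenger end (2.13, SE 0.36). None fell; Lsm10 and Lsm11, of the U7 particle that directs the cut, were at -0.28 (SE 0.36) and 1.31 (SE 0.56) and were not called.

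Of 10 replacement histone genes, 7 rose and none fell, where 17.7% of all genes tested were higher and 18.6% lower. H2afx, whose protein is phosphorylated at DNA breaks, rose by 5.37 (SE 0.25) and H2afz by 2.70 (SE 0.28), whereas H3f3a was at 0.32 (SE 0.23) and H3f3b at -0.11 (SE 0.24), neither called. Among 10 histone chaperones 7 rose, such as Nasp (2.64, SE 0.31) and Nap1l1 (1.15, SE 0.26), and Daxx, a chaperone of the replacement histone H3, fell by 1.02 (SE 0.36). The 4 haemoglobin genes had values between 2.00 and 2.52 and none was called.

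In resting endothelial cells irradiation was compared over 1511 IR and 455 CON cells at 24 hours and 462 IR and 772 CON cells at 56 days. With 1 library a group no test applies, and the ratios carry 95% exact conditional binomial intervals that cover counting error only. The summed level was 467 CPM in IR against 407 CPM in CON at 24 hours, a ratio of 1.15 (1.06 to 1.25), and 585 against 597 CPM at 56 days, a ratio of 0.980 (0.905 to 1.06). At 24 hours 15 members had at least 20 summed UMIs; 5 were at least 1.5-fold higher in IR and 1 lower, where 15.2% of all 10956 genes so measured were higher and 6.75% lower. At 56 days 13 were measured; 5 were higher and 3 lower, where 12.1% and 12.5% of 10103 genes were.

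Hist1h1e differed in opposite directions at the 2 times. It stood at 123 CPM in IR against 63.1 CPM in CON at 24 hours, a ratio of 1.95 (1.59 to 2.42), and at 59.1 CPM in IR against 208 CPM in CON at 56 days, a ratio of 0.285 (0.229 to 0.350). Between the times, the 2 CON values, 63.1 and 208 CPM, lay further apart than the 2 IR values, 123 and 59.1 CPM. No more than 9 of its 673 and 7 of its 107 UMIs at 24 hours came from 1 cell. Without Hist1h1e the summed ratio was 1.00 (0.911 to 1.10) at 24 hours and 1.35 (1.23 to 1.48) at 56 days, where the other members together thus went the other way.

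The pattern of Hist1h1e was seen in other resting classes. At 24 hours its ratio was above 1 in all 7 classes where each library had 25 or more cells, from 1.22 in B-lineage to 2.26 (1.39 to 3.84) in satellite cells, and the interval left out 1 in 2 of them. At 56 days it was below 1 in all 6 such classes, from 0.285 in endothelial cells to 0.634 in pericytes or smooth muscle cells, and the interval left out 1 in 5. Classes of 1 library share its preparation and are not replicates.

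At 24 hours Hist1h2bc stood in endothelial cells at 82.97 CPM in IR and 84.3 CPM in CON, a ratio of 0.985 (0.814 to 1.20). At 56 days it was 138 CPM in IR against 77.2 CPM in CON, a ratio of 1.79 (1.48 to 2.17). Its ratio at 56 days was above 1 in 5 of 6 classes: 4.29 (2.16 to 9.46) in pericytes or smooth muscle cells, 4.12 (2.63 to 6.53) in FAPs, where 21 of 53 IR UMIs were from 1 cell, 2.69 in B-lineage, 1.31 in satellite and 0.744 in Schwann cells. Hist1h1c was at 139 CPM in IR against 101 CPM in CON at 56 days, a ratio of 1.38 (1.16 to 1.65), with 30 of 257 IR UMIs in 1 cell. Both endothelial ratios at 56 days were smaller when cells were thinned to 1000 UMIs. The log2 ratio of Hist1h2bc was then 0.5565 in place of 0.840, and that of Hist1h1c 0.2005 in place of 0.469. Each kept its direction but lay just below the lower end of its unthinned interval.

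Hist3h2a was lower in IR at 24 hours, at 39.0 against 54.8 CPM (ratio 0.712, 0.555 to 0.918), and higher at 56 days, at 73.8 against 45.8 CPM (1.61, 1.25 to 2.08). The 24-hour direction was not kept when cells were thinned to 1000 UMIs (log2 ratio 0.0988). Hist3h2ba was at 4.03 CPM in IR against 11.2 CPM in CON at 24 hours (0.360, 0.186 to 0.703) and at 11.9 against 11.4 CPM at 56 days. Hist1h1d had 33 UMIs in IR and 3 in CON at 24 hours (3.42, 1.07 to 17.4). Hist2h2ac (0.221, 0.0560 to 0.641, from 4 IR and 25 CON UMIs) and Hist1h4c (0.323, 0.120 to 0.750) were lower in IR at 56 days.

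**Figure D4:**
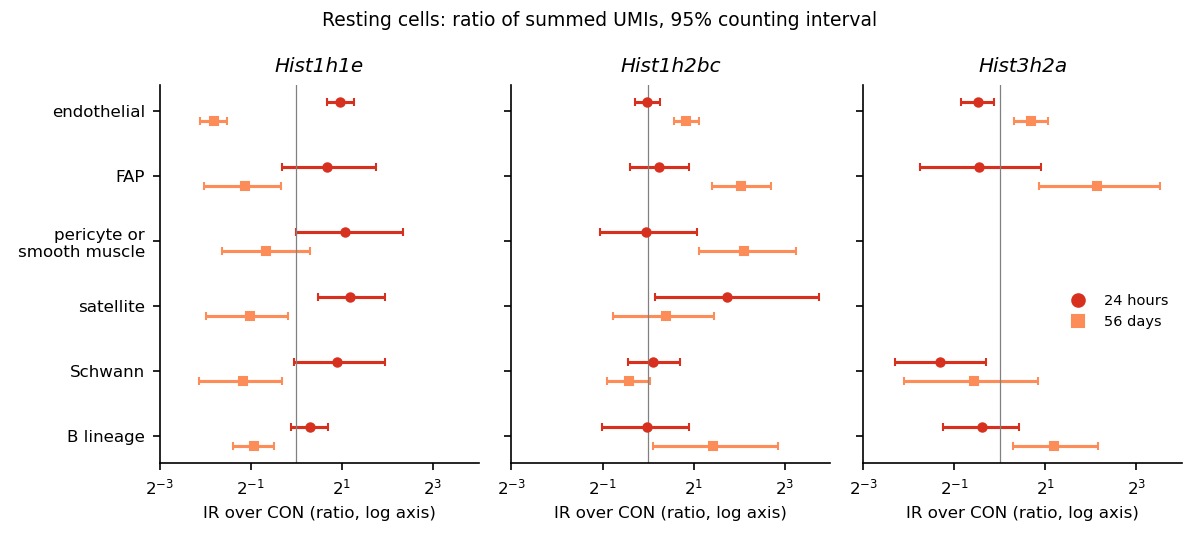
Ratio of CPM, IR over CON (log axis), of Hist1h1e, Hist1h2bc and Hist3h2a in resting cells of 6 classes at 24 hours and 56 days, with 95% intervals for counting error only. Hist1h1e lies right of 1 in every class at 24 hours (1.22 to 2.26) and left of 1 in every class at 56 days (0.285 to 0.634).

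In the same endothelial cells, 13 genes for messenger synthesis and processing were measured. At 24 hours 4 were at least 1.5-fold higher in IR (15.2% of all genes measured were). At 56 days 1 was higher and 2 lower, where 12.1% and 12.5% of all genes measured were. Npat was at 40.8 CPM in IR against 21.2 CPM in CON at 24 hours (ratio 1.93, 1.35 to 2.82). At 56 days it was at 31.5 against 42.3 CPM (0.743, 0.531 to 1.03). Slbp had ratios of 0.927 (0.751 to 1.15) and 0.905 (0.678 to 1.20) at the 2 times. Among replacement histones, H3f3a had 0.833 (0.796 to 0.871) at 24 hours and 0.953 (0.902 to 1.01) at 56 days. H3f3b lay on the other side of 1, at 1.07 (1.02 to 1.13) and 1.02 (0.963 to 1.08).

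In the FAP sum, all members together were at 658 CPM in IR and 364 CPM in CON at 56 days (1.81, 1.47 to 2.22), and without Hist1h2bc the ratio was 1.41 (1.11 to 1.80). In satellite cells, the muscle stem cells, the sum was 693 CPM in IR and 285 CPM in CON at 24 hours (2.44, 1.79 to 3.37) from 59 and 26 cells, and 496 and 611 CPM at 56 days (0.812, 0.575 to 1.13). In Schwann cells it was 891 and 1237 CPM at 56 days (0.720, 0.585 to 0.884).

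Among dividing cells, IR and CON could be compared only for erythroid cells at 56 days, with 21 IR and 64 CON cells. The summed level was 13816 CPM in IR against 31036 CPM in CON, a ratio of 0.445 (0.430 to 0.461). Of 54 members measured, 33 were at least 1.5-fold lower in IR and 3 higher, where 28.0% of all 4325 genes so measured were lower and 8.51% higher and the median log2 ratio of all was -0.15. Hist1h3c was at 173 CPM in IR against 1000 CPM in CON (0.173, 0.127 to 0.232), Hist1h1b at 1652 against 6436 CPM (0.257, 0.233 to 0.282), Hist1h1c at 470 against 1878 CPM and Hist1h1e at 922 against 3049 CPM (0.302, 0.265 to 0.344). The H2A and H4 leaders were nearer: Hist1h2ae had a ratio of 0.492 (0.452 to 0.534) and Hist1h4d 0.598 (0.525 to 0.680). Hist1h2ap, at 1836 CPM in IR and 1492 CPM in CON, went the other way (1.23, 1.11 to 1.36), as did Hist1h4i (1.65, 1.25 to 2.15). Cycling erythroid cells of CON 24-hours, at 15574 CPM, were nearer to those of IR 56-days than to those of CON 56-days, so the 2 CON libraries also differed by a wide margin. Whether the erythroid cells of the 2 limbs were at the same stage was not tested.

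**Figure D5:**
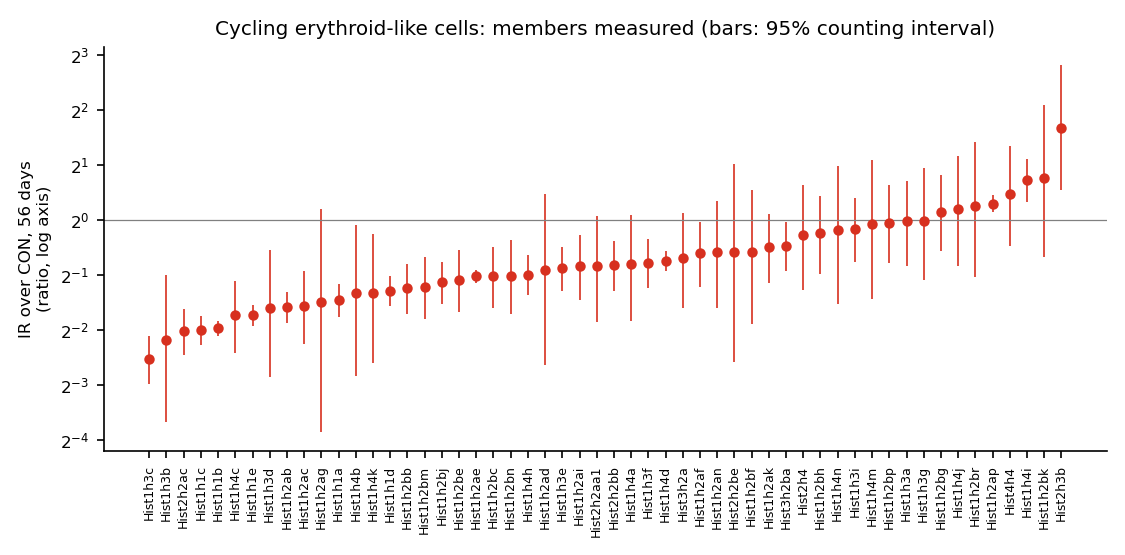
Ratio of CPM, IR over CON (log axis), of each of the 54 measured members in cycling erythroid cells at 56 days, ordered by ratio, with 95% intervals for counting error only. Most members lie below 1, with Hist1h3c (0.173) lowest, and Hist2h3b (3.20) is highest.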

How the data were processed

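Single-cell 3' UMI counts per gene and barcode were deposited by the authors as matrices without normalization; the submitters' processing notes name Cell Ranger 5.0.0 and the build mm10. The members, gates and lists were chosen with earlier results of these data known. Barcodes were kept as stated above; no doublet caller was run, and the demand that 1 class's markers dominate left 782 kept cells in no class and 265 cells with 1 cycle gene out of both groups. UMIs were summed per library and cell group (sums of under 10 cells left out, so IR 24-hours has no cycling sum) and tested with edgeR 4.0.16 in R 4.3.3 (TMM, filterByExpr, quasi-likelihood, library block), Benjamini-Hochberg adjusted over all 12014 genes. The fit was tested on simulated data. CPM are scaled to the kept UMIs of the group. IR and CON were compared by CPM ratios with exact conditional binomial intervals (95%), at least 20 summed UMIs and at least 25 cells in both libraries; the 20 cells accepted for cycling erythroid cells were set after the cell numbers were seen. Named are the 3 members with most UMIs per family, the 10 with the largest called fold change, the endothelial members furthest from a ratio of 1, the 2 list genes with most UMIs, and others named after their values were seen. Coordinates are from GENCODE M21 (1-based) and promoters from RefSeq. PCR, pooling and priming error lie outside all intervals.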

Additional observations from a re-analysis of the deposited data

Results flagged for a closer look

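In 3 cases a member's ratio of IR over CON differed in direction between the times; the differences were not tested, since each group is 1 library. Hist1h1e in resting endothelial cells was at a ratio of 1.95 at 24 hours and 0.285 at 56 days. Hist1h1e in resting satellite cells was at 2.26 at 24 hours and 0.493 at 56 days. Hist3h2a in resting endothelial cells was at 0.712 at 24 hours and 1.61 at 56 days. In each case both counting intervals leave out 1, on opposite sides.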

How the results depend on the processing

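Values for named members were compared under the alternatives. Between cell groups, 740 kept their direction and side of the threshold, 22 fell below it, 2 passed it and 2 reversed. For IR over CON 69 held, 2 moved and 1 reversed. The 2 that moved were Hist1h2bc and Hist1h1c in resting endothelial cells at 56 days, both after thinning to 1000 UMIs. The reversals were Hist1h2bc, resting blood over endothelial and stromal cells (0.21, not called), at -0.0768 with at least 4 markers and from -0.329 (without CON 56-days) to 0.402 (without CON 24-hours) when a library was left out, and Hist3h2a at 24 hours, at 0.0988 after thinning. Members called higher in cycling over resting blood numbered 48, and 24 with at least 1 cycle gene as the gate and 24 after thinning to 1000 UMIs, where fewer members passed the filter (26 in both). Against endothelial and stromal cells the counts were 26 and 25 in place of 49, and for resting blood over endothelial and stromal cells 18 and 16 in place of 29. Of all genes tested, 15.7%, 25.5% and 23.6% were higher with at least 1 cycle gene, and 7.49%, 12.8% and 22.2% after thinning. Leaving out each library in turn gave 42 to 53, 42 to 57 and 23 to 25, of 43 to 57 tested. Of all genes, 13.7% to 18.0%, 22.2% to 26.3% and 20.3% to 22.6% were higher. The counts were 42, 42 and 23 of 43 without CON 56-days, and 53, 57 and 25 of 57 without CON 24-hours. The DESeq2 Wald test gave 41, 47 and 28 of 49 (16.8%, 24.1% and 22.1% of all genes). No filter gave 57, 60 and 32 of 66 (10.2%, 15.4% and 14.9%). No library block gave 48, 49 and 28 of 49 (17.1%, 25.9% and 23.6%). Without erythroid cells (chosen after seeing the data) the counts were 32, 36 and 25 of 39 (10.7%, 19.8% and 24.0%). In endothelial cells the number of members measured changed with the setting, and no share over all genes is given for these settings. At 24 hours, members higher in IR numbered 12 of 30 with at least 5 UMIs and 2 of 8 with at least 50. They numbered 2 of 6 after thinning and 2 of 15 at 2-fold. Members lower numbered 6 of 30 and 0 of 8 with at least 5 and 50. At 56 days the higher count was 13 of 31 with at least 5 UMIs, 1 of 5 after thinning and 1 of 13 at 2-fold. The lower count was 6 of 31 with at least 5, 1 of 8 with at least 50 and 1 of 5 after thinning. The log2 ratio summed over measured members was -0.319 after thinning, over 5 members, in place of -0.0648 over 13 (-0.165 with cells weighted equally). The cause was not tested. No paired analysis was possible because each group is 1 library. Members with few UMIs in resting cells are limited by depth.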

Other observations

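Cycling erythroid cells were also set apart by whether S-phase or G2/M genes gave the larger share of the 2 lists. S-leaning cells had 25786 CPM of clustered histone UMIs and G2/M-leaning cells 13045 CPM in CON 24-hours, from 7 and 17 cells. In IR 56-days the values were 16075 CPM in 11 S-leaning and 11264 CPM in 10 G2/M-leaning cells. In CON 56-days the order was the other way, 26474 CPM in 23 S-leaning and 38561 CPM in 39 G2/M-leaning cells. The share is a range and not a stage, and 34 of 170 cycling blood cells lay within 20% of the dividing value. Free RNA enters it too.

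Few muscle cells cycled: 4 endothelial cells of IR 56-days had 777 CPM of clustered histone UMIs and 2 of CON 56-days had 2477 CPM. H2afj, a replacement H2A gene named here after its values were seen, was at 385 CPM in IR against 165 CPM in CON in resting endothelial cells at 24 hours, a ratio of 2.33 (2.06 to 2.65), and at 258 against 92.5 CPM at 56 days, a ratio of 2.79 (2.38 to 3.27). Its ratio was thus above 1 at both times, unlike that of Hist1h1e.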
